A study of Rattus norvegicus with 30 samples.

Results

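Lgals3, Spp1, Gpnmb, Lyz2 and Apoe are 5 genes of the state that phagocytes take on in damaged brain tissue, and their transcripts were followed in 3 brain areas of rats that had traumatic brain injury (TBI) 3 months earlier. They were read from the deposited count tables by their Ensembl identifiers, ENSRNOG00000010645 for Lgals3, ENSRNOG00000043451 for Spp1, ENSRNOG00000008816 for Gpnmb, ENSRNOG00000005825 for Lyz2 and ENSRNOG00000018454 for Apoe. All 5 were found, among 26404 identifiers in each table, and all 5 passed the filter on low counts in each area. The 5 genes were chosen by measured values, with the differences between TBI and sham-operated rats in these same tables already known, so their values in that contrast are given as a description and without a p-value. Adult male Sprague-Dawley rats received lateral fluid-percussion injury (FPI), a pulse of fluid pressure on the exposed but intact dura over the left parietal cortex, or the same anesthesia and craniectomy without the pulse. The perilesional cortex, the thalamus and the hippocampus (dissected as the dentate gyrus with the adjoining CA3c-b) of 5 TBI rats and 5 sham-operated rats gave 1 poly-A mRNA library each, which made 30 libraries from 10 rats. Rats 1 to 5 were sham-operated and rats 6 to 10 had TBI in every area, and the sham-operated rats thus share the skull opening with the injured ones.

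Microglia are the resident macrophages of the brain, and after tissue damage they and macrophages that enter from the blood clear dead cells and myelin. Phagocytes loaded with such debris lower some of the genes of resting microglia and switch on a common set of genes for engulfment, lysosomal digestion and lipid export, to which these 5 belong. Lgals3 encodes galectin-3, a lectin that binds sugar chains on cell surfaces and on damaged lysosomes. Spp1 encodes osteopontin, a secreted phosphoprotein that binds integrins and CD44. Gpnmb encodes a transmembrane glycoprotein of lysosomes and the cell surface. Lyz2 encodes lysozyme, an enzyme of macrophages and neutrophils that cuts bacterial cell walls. Apoe encodes apolipoprotein E, the main lipid carrier made in the brain, and unlike the other 4 it is abundant in healthy astrocytes. The tables hold whole tissue, so a larger number of expressing cells and more RNA per cell cannot be told apart, nor can microglia be told apart from macrophages, astrocytes or other cells.

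The libraries held 21992859 to 31799879 counted reads. The 10 most counted genes took 44.1% and 40.9% of the reads of the hippocampal libraries of sham-operated rats 4 and 5, against 9.95% to 16.4% in the other 8 hippocampal libraries. Levels are in CPM, a gene's reads relative to the depth of its library, after scaling of the libraries within an area by the trimmed mean of M-values (TMM). In the hippocampus, sham-operated rat 3 was the highest of its group and TBI rat 8 the lowest of its group for all 5 genes. A check of these 2 libraries against genes with separate levels in single rats could not be made, since 0 genes met its rule, so the labels were kept and hippocampal differences are given with and without these rats, and without rats 4 and 5. The paper's methods leave a pair of hippocampal control samples out for low alignment without naming them, and all 10 hippocampal libraries were used here. Why these 2 libraries lie where they do was not tested.

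Since the 5 genes were high in many of the same libraries, the 250 bases before their annotated starts were read from RefSeq's promoter table (build GRCr8, while the counts rest on Rnor_5.0), which matched 4 of the 5 genes. They were searched on both strands for 6 short motifs, and 4 promoters that held one are printed 5′ to 3′ on the gene's strand, with the match in capitals.
Spp1, chr14:5619805-5620054, minus strand: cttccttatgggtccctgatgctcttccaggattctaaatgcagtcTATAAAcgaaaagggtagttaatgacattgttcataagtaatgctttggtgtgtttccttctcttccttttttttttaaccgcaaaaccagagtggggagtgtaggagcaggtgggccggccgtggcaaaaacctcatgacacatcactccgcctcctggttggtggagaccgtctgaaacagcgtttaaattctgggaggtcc
Gpnmb, chr4:79340878-79341127, plus strand: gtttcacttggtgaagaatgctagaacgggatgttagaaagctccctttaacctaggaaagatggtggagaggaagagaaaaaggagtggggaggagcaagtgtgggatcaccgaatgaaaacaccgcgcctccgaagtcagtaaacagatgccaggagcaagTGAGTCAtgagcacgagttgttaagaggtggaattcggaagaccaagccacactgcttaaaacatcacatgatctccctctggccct
Lyz2, chr7:54798012-54798261, minus strand: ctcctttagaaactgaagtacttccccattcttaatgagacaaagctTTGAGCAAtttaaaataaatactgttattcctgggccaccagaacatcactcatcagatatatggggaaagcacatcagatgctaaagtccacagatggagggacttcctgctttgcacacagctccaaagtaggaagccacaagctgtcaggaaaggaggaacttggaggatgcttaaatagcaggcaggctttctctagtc
Apoe, chr1:88485817-88486066, minus strand: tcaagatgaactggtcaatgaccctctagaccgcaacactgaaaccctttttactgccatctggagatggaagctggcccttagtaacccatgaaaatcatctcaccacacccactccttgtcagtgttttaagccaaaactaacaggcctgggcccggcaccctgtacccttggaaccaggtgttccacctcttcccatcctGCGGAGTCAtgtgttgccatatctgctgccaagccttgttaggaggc
The Spp1 promoter held TATAAA, the letters of a TATA box, at 204 to 199 bases before the start, and 12.9% of the 33469 promoters in the table held it. The Gpnmb promoter held TGANTCA, the letters bound by AP-1 factors, as TGAGTCA at 87 to 81 bases before the start (6.34% of all promoters). The Lyz2 promoter held TTGCNNAA, a form of the C/EBP element, on its other strand, where the printed strand reads TTGAGCAA at 203 to 196 bases before the start (9.22% of all promoters). Of 3 annotated Apoe starts, the one printed held TGACNNNGC, the core of the antioxidant response element, on its other strand, printed as GCGGAGTCA at 47 to 39 bases before the start (10.1% of all promoters), and the windows of the other 2 starts held none of the motifs. GAGGAAGT, an element of the myeloid factor PU.1, and the E-box CACGTG were in none of these windows, and 2.04% and 5.59% of all promoters held them. No motif was shared between the 4 genes, the matches are letters and not tested sites, and TGANTCA and TGACNNNGC can overlap each other.

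Each of the 5 genes had a higher mean after TBI than after sham operation in the cortex, thalamus and hippocampus. In the cortex, Lgals3 was 17.2 times and Spp1 16.9 times as high, Gpnmb 9.55 times, Lyz2 2.29 times and Apoe 1.57 times, and no TBI library overlapped a sham library for any of them. In the thalamus the ratios lay between 1.82 for Apoe and 7.71 for Gpnmb, and TBI rat 6 stayed close to the sham-operated rats for all 5. With all rats, the differences were smallest in the hippocampus, between 1.20 times for Lyz2 and 3.47 times for Lgals3, and the groups overlapped for every gene. Without rats 3 and 8, the hippocampal log2 fold change of Spp1 was 2.64. That is above its thalamic value of 2.52 with all rats and below its thalamic value of 2.79 without rat 6. The median log2 fold change of the 5 genes was 3.26 in the cortex, 2.52 in the thalamus and 1.25 in the hippocampus, where that of all genes tested was -0.012, -0.0016 and -0.010.

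**Figure D1:**
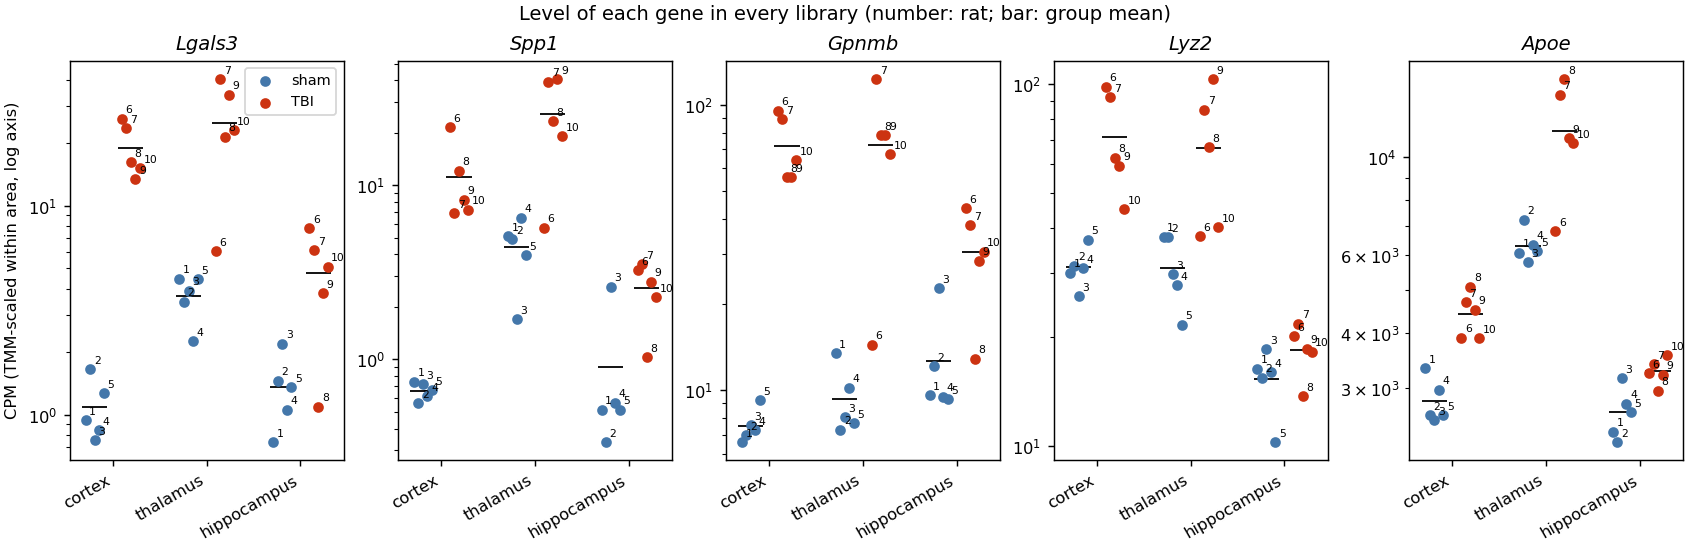
Level of each gene in every library, in CPM on a log axis, by brain area, with blue points for sham-operated rats, red points for TBI rats, the rat's number beside each point and a bar at the group mean. In the cortex the TBI points lie above all sham points for all 5 genes, in the thalamus rat 6 lies lowest of the TBI points, and in the hippocampus sham rat 3 and TBI rat 8 lie toward the other group.

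Lgals3, the galectin, was nearly silent in the sham cortex. Its cortical level was 0.942, 1.64, 0.754, 0.842 and 1.26 CPM in sham-operated rats 1 to 5 and 26.0, 23.4, 16.1, 13.4 and 15.05 CPM in TBI rats 6 to 10. The groups stood far apart, with TBI rats 6 and 7 the highest, and the counts behind these levels were 19 to 41 reads in the sham libraries and 401 to 931 after TBI. This gave 1.09 ± 0.365 CPM in the sham group and 18.8 ± 5.58 CPM in the TBI group (mean ± SD, n = 5 each), which is a log2 fold change of 4.11 (standard error 0.25) and the rise of rank 4 among the 17185 genes tested. In the thalamus, the level was 4.47, 3.47, 3.91, 2.25 and 4.43 CPM in sham-operated rats 1 to 5 and 6.03, 40.2, 21.4, 34.0 and 22.9 CPM in TBI rats 6 to 10. TBI rat 6 exceeded the sham-operated rats by a small step, while the other 4 TBI rats stood far above them, and the log2 fold change was 2.75 (standard error 0.40). In the hippocampus, the level was 0.738, 1.45, 2.18, 1.06 and 1.35 CPM in sham-operated rats 1 to 5 and 7.78, 6.10, 1.09, 3.80 and 5.10 CPM in TBI rats 6 to 10. TBI rats 6, 7, 9 and 10 lay above all sham-operated rats and rat 8 lay within them, with a log2 fold change of 1.80 (standard error 0.49). Without rats 3 and 8, it was 2.33 (standard error 0.26).

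Spp1, osteopontin, had low and closely similar levels in the sham cortex. The cortical level was 0.743, 0.561, 0.720, 0.612 and 0.666 CPM in sham-operated rats 1 to 5 and 21.5, 6.88, 12.1, 8.26 and 7.21 CPM in TBI rats 6 to 10. The groups stood far apart and the TBI rats differed among themselves, with rat 6 the highest and rat 7 the lowest. This gave 0.661 ± 0.0752 CPM in the sham group and 11.2 ± 6.11 CPM in the TBI group (mean ± SD, n = 5 each), with a log2 fold change of 4.08 (standard error 0.37) that fell to 3.69 when rat 6 was left out. In the thalamus, the level was 5.08, 4.90, 1.70, 6.51 and 3.97 CPM in sham-operated rats 1 to 5 and 5.69, 39.4, 23.3, 40.6 and 19.1 CPM in TBI rats 6 to 10. TBI rat 6 lay below sham-operated rat 4, the other 4 TBI rats lay above every sham-operated rat, and sham-operated rat 3 was low. The thalamic log2 fold change was 2.52 (standard error 0.47). The hippocampal level was 0.514, 0.335, 2.62, 0.563 and 0.513 CPM in sham-operated rats 1 to 5 and 3.24, 3.53, 1.03, 2.79 and 2.27 CPM in TBI rats 6 to 10. Sham-operated rat 3 stood apart from the other 4, above TBI rats 8 and 10, and its 78 reads compare with 8 to 16 reads in the other sham libraries. The hippocampal log2 fold change was 1.41 (standard error 0.56) with all rats, 2.44 without rat 3, and 2.64 (standard error 0.24) without rats 3 and 8, so this value depends on 1 sham library.

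Gpnmb, the lysosomal glycoprotein, had well separated groups in the cortex and a wide TBI range in the thalamus. Its cortical level was 6.59, 6.98, 7.54, 7.27 and 9.22 CPM in sham-operated rats 1 to 5 and 95.4, 89.2, 55.9, 55.7 and 64.1 CPM in TBI rats 6 to 10. The groups did not overlap, with the highest sham library at 9.22 CPM and the lowest TBI library at 55.7 CPM. This gave 7.52 ± 1.01 CPM in the sham group and 72.1 ± 18.9 CPM in the TBI group (mean ± SD, n = 5 each), or a log2 fold change of 3.26 (standard error 0.17), rank 15 among the cortical rises. In the thalamus, the level was 13.5, 7.27, 8.07, 10.2 and 7.69 CPM in sham-operated rats 1 to 5 and 14.4, 123, 78.5, 78.4 and 67.2 CPM in TBI rats 6 to 10. TBI rat 6 lay just above sham-operated rat 1 and the other TBI rats were at least 67.2 CPM, so the highest TBI level was 8.52 times the lowest. The thalamic log2 fold change was 2.95 (standard error 0.43), rank 6 among 16605 genes. The hippocampal level was 9.60, 12.2, 22.8, 9.50 and 9.30 CPM in sham-operated rats 1 to 5 and 43.4, 37.8, 12.9, 28.4 and 30.6 CPM in TBI rats 6 to 10. TBI rat 8 lay below sham-operated rat 3, and all other TBI rats lay above all sham-operated rats. The hippocampal log2 fold change was 1.25 (standard error 0.38), or 1.78 (standard error 0.14) without rats 3 and 8.

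Lyz2, lysozyme, was already present in sham tissue and differed less. Its cortical level was 30.1, 31.5, 25.9, 31.0 and 37.2 CPM in sham-operated rats 1 to 5 and 98.2, 91.8, 62.5, 59.5 and 45.0 CPM in TBI rats 6 to 10. The groups were separate, though TBI rat 10 stood close to sham-operated rat 5. This gave 31.1 ± 4.02 CPM in the sham group and 71.4 ± 22.6 CPM in the TBI group (mean ± SD, n = 5 each), with a log2 fold change of 1.20 (standard error 0.20) and rank 483. In the thalamus, the level was 37.8, 37.7, 29.8, 27.9 and 21.7 CPM in sham-operated rats 1 to 5 and 38.1, 85.0, 67.0, 103 and 40.2 CPM in TBI rats 6 to 10. TBI rats 6 and 10 lay just above the highest sham-operated rats and rats 7, 8 and 9 well above them, with a log2 fold change of 1.10 (standard error 0.26). The hippocampal level was 16.4, 15.5, 18.5, 16.0 and 10.3 CPM in sham-operated rats 1 to 5 and 20.1, 21.8, 13.7, 18.6 and 18.2 CPM in TBI rats 6 to 10. The groups lay within each other's range apart from sham-operated rat 5, which was low, and TBI rats 6 and 7, which were high (rat 9 exceeded sham-operated rat 3 by little), and the log2 fold change was 0.26 (standard error 0.14), or 0.43 (standard error 0.13) without rats 3 and 8. The ratio of the counts of 1 other identifier, ENSRNOG00000034139, to those of Lyz2 stayed within 1.51-fold over all 30 libraries, so whether the 2 identifiers share reads is uncertain. For Apoe, the nearest identifier stayed within 1.54-fold, so this measure alone does not single out Lyz2. The lowest count was 160 reads for Lyz2 and 39293 for Apoe, so the 2 ranges do not carry the same counting error.

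Apoe, the lipid carrier, was measured from 39293 to 453992 reads per library, so counting error is negligible beside the spread between rats. Its cortical level was 3325, 2605, 2535, 2978 and 2606 CPM in sham-operated rats 1 to 5 and 3903, 4697, 5093, 4517 and 3888 CPM in TBI rats 6 to 10. The groups did not overlap, and rat 8 was the highest. This gave 2809.9 ± 336 CPM in the sham group and 4419 ± 522 CPM in the TBI group (mean ± SD, n = 5 each), which is a log2 fold change of 0.65 (standard error 0.11). In the thalamus, the level was 6084, 7220.3, 5791, 6347 and 6124 CPM in sham-operated rats 1 to 5 and 6794, 13872, 15034, 11055 and 10758 CPM in TBI rats 6 to 10. TBI rat 6 lay below sham-operated rat 2 and the other TBI rats lay above every sham-operated rat, with a log2 fold change of 0.87 (standard error 0.18). The hippocampal level was 2393, 2264, 3160.4, 2766 and 2649.8 CPM in sham-operated rats 1 to 5 and 3248, 3403, 2959.9, 3219 and 3561 CPM in TBI rats 6 to 10. TBI rat 8 lay below sham-operated rat 3 and the other 4 TBI rats above it, with a log2 fold change of 0.31 (standard error 0.09), or 0.41 (standard error 0.10) without rats 3 and 8.

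In edgeR's quasi-likelihood fit over all genes of an area (adjusted p under 0.05), all 5 genes were among those called higher after TBI in the cortex, where 14.2% of the 17185 genes tested were called higher. For all 5 genes, all TBI libraries lay above all sham libraries in the cortex, as they did for 10.2% of genes. In the thalamus all 5 genes were called, where 3.77% of the 16605 genes tested were called higher, and for 3 of the 5 (Lgals3, Gpnmb and Lyz2) the groups did not overlap, as for 2.75% of genes. In the hippocampus, edgeR called 0% of the 16963 genes tested higher, these 5 included, and for 0 of the 5 did the TBI libraries all lie above the sham libraries, as they did for 0.519% of genes. There, 1432 genes had an unadjusted p under 0.05 in edgeR, and DESeq2 called 5 genes higher and 41 lower among the 1321 to which it gave an adjusted p. Apoe was the only one of the 5 genes with an adjusted p in that DESeq2 fit, and it was called. The choice of the 5 genes rested on this contrast. Their calls, here and in the fits with rats left out, are therefore a description and no test of these genes. Their counts are not set against these shares.

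The thalamic calls of edgeR depended on single rats, and the fits with a rat left out were made in edgeR only. With all rats, DESeq2 called all 5 genes in the thalamus, where it called 6.57% of 17322 genes higher. With sham-operated rat 3 or 5 or TBI rat 7 or 8 left out, edgeR called 0 thalamic genes higher, these 5 included, although 2971 to 3281 genes had an unadjusted p under 0.05 in those fits. Without TBI rat 10, Lgals3, Spp1 and Gpnmb were called among 66 genes called higher (0.394% of all genes tested). Without rat 4 or rat 9, 4 of the 5 (not Lyz2) were called, where 2.35% and 2.52% of all genes tested were called higher. Without TBI rat 6, all 5 were called among 1333 genes called higher (7.99% of all genes tested). The thalamic log2 fold changes themselves moved little, with Lgals3 between 2.50 and 3.00, Spp1 between 2.295 and 2.79, Gpnmb between 2.67 and 3.22, Lyz2 between 0.89 and 1.26 and Apoe between 0.74 and 1.01 over the 10 fits with a rat left out. In the cortex, the 5 genes were called in each of the 10 such fits, where 12.0% to 14.6% of all genes tested were called higher.

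The hippocampal calls changed with rats 3 and 8. With both left out, edgeR called 246 of 16960 genes higher (1.45%), among them Lgals3, Spp1 and Gpnmb and not Lyz2 or Apoe. These 2 rats are the ones whose levels of the 5 genes lay nearest the other group, so the calls without them are not independent of the values described. With rat 8 alone left out, Lgals3 was the 1 gene called, and with rat 3 alone left out there was none in edgeR, at 2089 genes with an unadjusted p under 0.05. With only rats 4 and 5 left out, whose reads were held by few genes, the log2 fold change was 1.72 (standard error 0.64) for Lgals3, 1.15 (0.66) for Spp1, 1.05 (0.46) for Gpnmb, 0.14 (0.13) for Lyz2 and 0.33 (0.13) for Apoe, which is lower than with all rats for each gene but Apoe. None of the 5 was then called, nor any gene at all in edgeR, at 947 genes with an unadjusted p under 0.05. When rats 3, 4, 5 and 8 were left out, Lgals3, Spp1 and Gpnmb were called among 76 genes higher (0.434%). In the 7 hippocampal libraries whose column names give FC120, edgeR called none of 17168 genes higher, at 860 genes with an unadjusted p under 0.05, and the log2 fold change was 1.53 (standard error 0.72) for Lgals3, 1.07 (0.75) for Spp1, 1.03 (0.53) for Gpnmb, 0.16 (0.14) for Lyz2 and 0.24 (0.11) for Apoe.

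**Figure D2:**
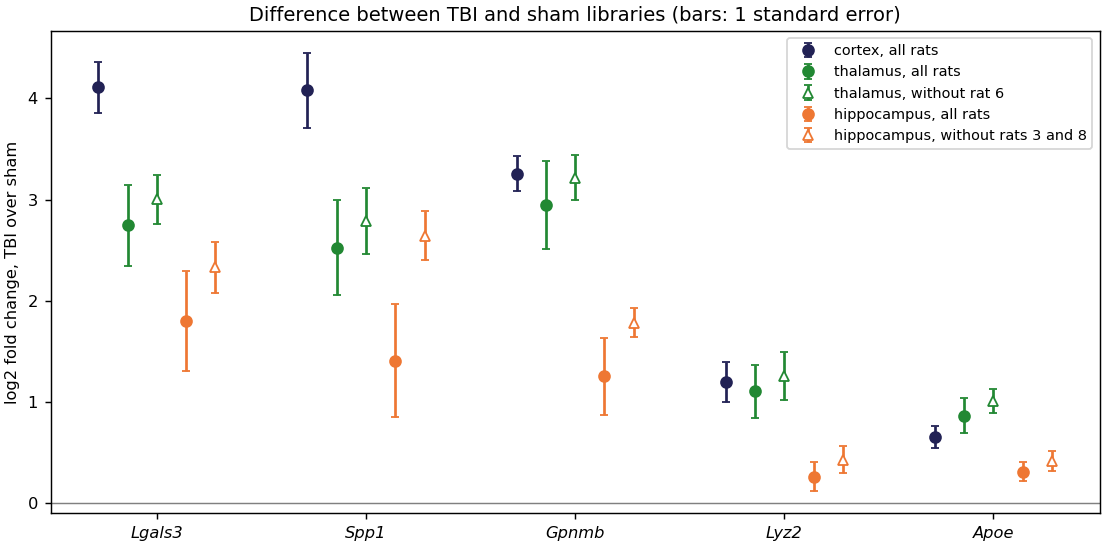
The log2 fold change of TBI over sham libraries for each gene, with bars of 1 standard error, in the 3 areas with all rats (circles) and with the rats that lay toward the other group left out (triangles; rat 6 in the thalamus, rats 3 and 8 in the hippocampus). The cortical values are the highest for Lgals3 and Spp1, at 4.11 and 4.08, and the hippocampal values with all rats are the lowest for every gene.

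The response was set side by side between areas by the difference of the log2 fold changes in 1 fit of all 30 libraries, as a description. Between cortex and hippocampus the difference was 2.28 (standard error 0.64) for Lgals3, 2.64 (0.80) for Spp1 and 1.97 (0.52) for Gpnmb, and 0.90 (0.33) for Lyz2 and 0.31 (0.19) for Apoe. The cortical estimate was the larger for each gene, although for Apoe the difference was within 2 standard errors of 0. Between cortex and thalamus it was 1.36 (0.59) for Lgals3 and 1.55 (0.72) for Spp1, whereas Gpnmb, Lyz2 and Apoe differed by 0.31 (0.52), 0.09 (0.32) and -0.21 (0.19), close to their standard errors or below them. Between thalamus and hippocampus the difference was largest for Gpnmb, at 1.66 (0.52). It was 1.09 (0.72) for Spp1, 0.92 (0.60) for Lgals3, 0.81 (0.33) for Lyz2 and 0.52 (0.19) for Apoe. These differences rest in part on sham-operated rat 3, since with that rat left out the Spp1 log2 fold change was 2.44 in the hippocampus and 2.32 in the thalamus. The areas came from the same rats, which the standard errors of this fit do not take into account, and no test of these differences was made.

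TBI rats 6 and 8 did not keep their place from area to area. Rat 6 had the highest cortical level of Lgals3, Spp1, Gpnmb and Lyz2, with log2 levels of 4.50, 4.82, 3.66 and 1.66 over the mean of the sham libraries. The thalamus of the same rat was the lowest of the TBI group for all 5 genes, at 0.73, 0.47, 0.66, 0.33 and 0.11 over the sham mean for Lgals3, Spp1, Gpnmb, Lyz2 and Apoe, and its hippocampus was high again, at 2.51 for Lgals3. Rat 8 showed the low values in the hippocampus instead, at -0.21 for Lgals3, 0.52 for Spp1, 0.12 for Gpnmb, -0.13 for Lyz2 and 0.17 for Apoe. In the thalamus that rat had the highest Apoe of all, at 1.26, and its Gpnmb was 3.09. Rat 7 was high in all 3 areas for Lgals3 and Gpnmb, with log2 levels over the sham mean of 4.35, 3.44 and 2.17 for Lgals3 in cortex, thalamus and hippocampus.

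**Figure D3:**
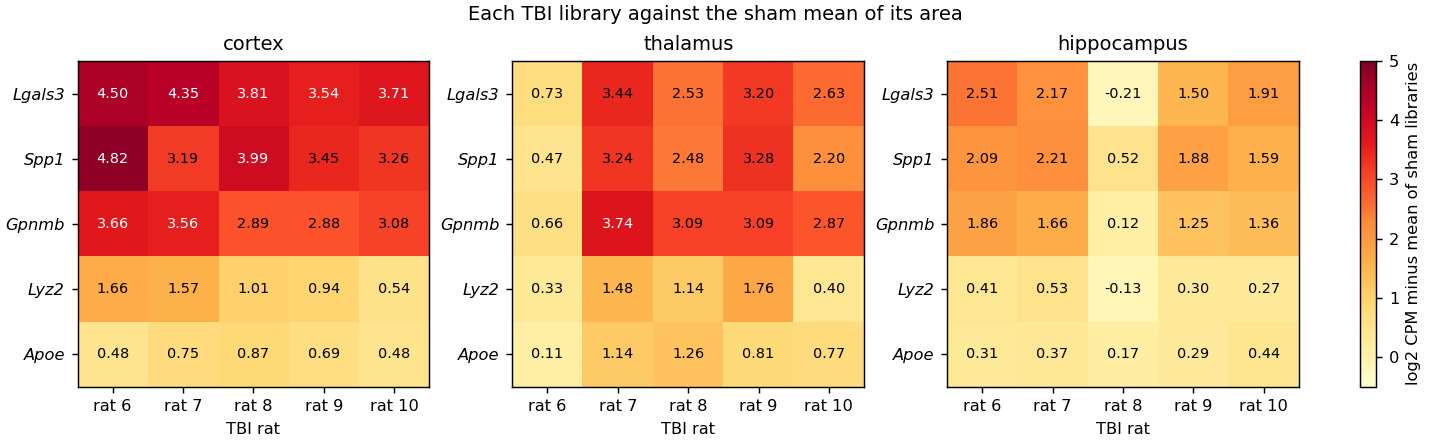
Each TBI library against the sham libraries of its area, as log2 CPM minus the mean log2 CPM of the 5 sham libraries, with genes in rows, TBI rats in columns and darker cells for larger differences. Rat 6 is pale in the thalamus (0.11 to 0.73) and in the cortex is dark for Lgals3, Spp1 and Gpnmb but not for Apoe (0.48), and rat 8 is pale in the hippocampus (-0.21 to 0.52).

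The difference between areas in uninjured tissue is another contrast than the one that chose the genes, but the same sham libraries are part of both, so these tests are not fully independent of the choice. The 3 areas were compared among the 15 sham libraries, with 1 TMM scaling over them and 15 tests of these genes, adjusted over all 17315 genes tested with edgeR. Lgals3, Spp1 and Apoe were highest in the thalamus. Sham Lgals3 was 3.02 ± 0.749 CPM in the thalamus, 1.40 ± 0.556 in the hippocampus and 1.02 ± 0.338 in the cortex (SD, n = 5 rats each). Sham Spp1 was 3.61 ± 1.43, 0.937 ± 0.989 and 0.619 ± 0.0716 CPM in the same order of areas. Sham Apoe was 5149 ± 517, 2729 ± 361 and 2634 ± 334 CPM. Gpnmb was highest in the hippocampus, at 13.1 ± 5.97 CPM against 7.60 ± 1.98 in the thalamus and 7.04 ± 0.918 in the cortex. Lyz2 was lowest there, at 15.8 ± 3.15 CPM against 25.2 ± 5.60 and 29.2 ± 3.71.

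The log2 difference between sham cortex and sham thalamus was -1.56 (standard error 0.28, adjusted p = 5.80e-05) for Lgals3 in edgeR's test. In the same edgeR comparison it was -2.54 (standard error 0.46, adjusted p = 8.14e-05) for Spp1 and -0.97 (standard error 0.11, adjusted p = 2.62e-07) for Apoe. For these 3 genes the cortex was lower in 5 of 5 rats and the areas did not overlap. Gpnmb, at -0.11 (standard error 0.23, adjusted p = 0.677), and Lyz2, at 0.21 (standard error 0.16, adjusted p = 0.238), did not pass edgeR's threshold between these areas. Thus 3 of the 5 genes were called, where 70.8% of all genes were called in either direction.

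Between sham cortex and sham hippocampus, edgeR gave log2 differences of -0.90 (standard error 0.23, adjusted p = 0.00375) for Gpnmb and 0.88 (standard error 0.16, adjusted p = 0.000221) for Lyz2. Gpnmb was lower and Lyz2 higher in the cortex in 5 of 5 rats, and neither overlapped. Lgals3, at -0.47 (standard error 0.29, adjusted p = 0.206), Spp1, at -0.67 (standard error 0.50, adjusted p = 0.289), and Apoe, at -0.05 (standard error 0.11, adjusted p = 0.725), did not pass the edgeR threshold, so the 2 lower places in the order of their levels are not told apart. Of the 5 genes 2 were called, where 44.4% of all genes were. Without the hippocampal library of rat 3, the Spp1 difference was 0.34 and the Gpnmb difference -0.57.

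Between sham thalamus and sham hippocampus, all 5 genes were called by edgeR, where 67.6% of all genes were. The log2 difference was 1.10 (standard error 0.27, adjusted p = 0.0016) for Lgals3, 1.87 (standard error 0.44, adjusted p = 0.00109) for Spp1 and 0.92 (standard error 0.11, adjusted p = 5.02e-07) for Apoe in edgeR's test. The thalamus was higher in 5 of 5 rats for Lgals3 and Apoe and in 4 of 5 for Spp1, where rat 3 went the other way. The libraries of the areas overlapped for Lgals3, Spp1, Gpnmb and Lyz2, and for Apoe they did not. Gpnmb was lower in the thalamus, at -0.79 (standard error 0.23, adjusted p = 0.00473) in edgeR, in 4 of 5 rats, and Lyz2 higher, at 0.67 (standard error 0.16, adjusted p = 0.00107), in 5 of 5. Without the hippocampal library of rat 3, edgeR gave -0.46 for Gpnmb (adjusted p = 0.0207) and 2.89 for Spp1 (adjusted p = 9.14e-07). Over the 3 comparisons, 10 of the 15 tests passed the threshold, and the shares called in the comparisons of the cortex are near those of all genes. The paper's methods describe another instrument and longer reads for the thalamic libraries, so area and sequencing cannot be told apart wherever the thalamus is one of the areas.

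**Figure D4:**
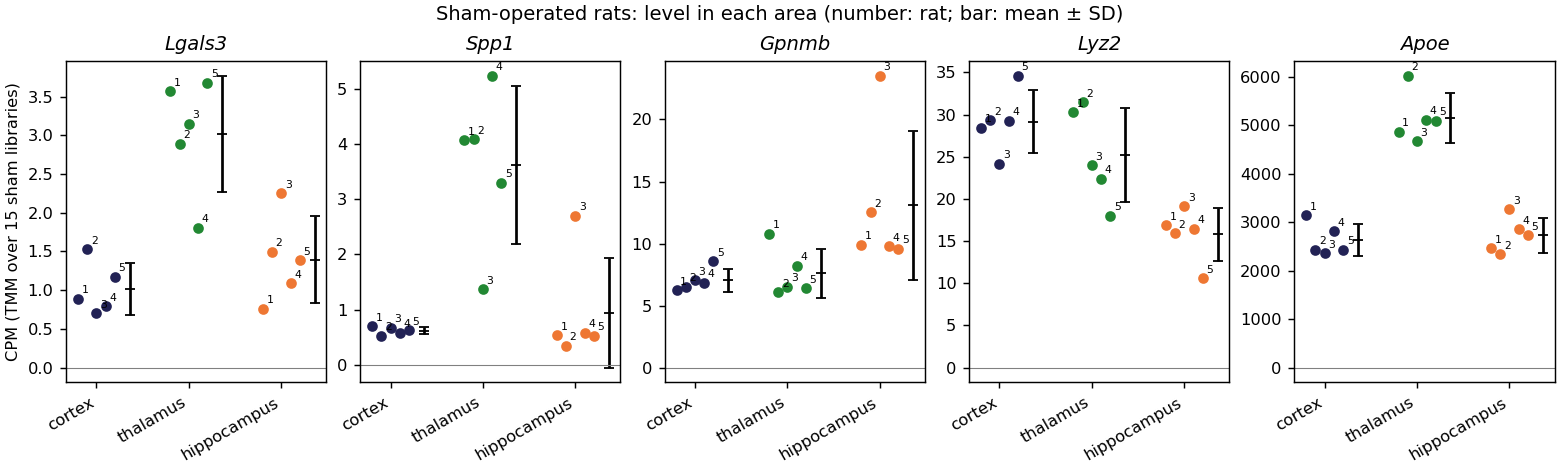
Level of each gene in the 15 sham libraries, in CPM with TMM scaling over these libraries, by area, with a point per rat, the rat's number beside it and a bar for the mean ± SD of 5 rats. Lgals3, Spp1 and Apoe are highest in the thalamus, Gpnmb is highest and Lyz2 lowest in the hippocampus, and the wide hippocampal bars of Spp1 and Gpnmb come with the single high value of rat 3.

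The order of the areas in sham tissue differed from the order of the response for Lgals3, Spp1 and Gpnmb, whereas Lyz2 had the same order in both and Apoe was highest in the thalamus in both. For Lyz2, the cortex and the thalamus were not told apart in either order. Without rat 6, its log2 fold change was 1.05 in the cortex and 1.26 in the thalamus. Sham Lgals3 and Spp1 were lower in the cortex than in the thalamus, and their log2 fold changes were larger in the cortex. Sham Gpnmb was highest in the hippocampus, where its fold change was smallest, at 1.25 (standard error 0.38). A fold change and the sham level in its denominator share the same libraries, so these orders are given side by side only.

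The pattern of each gene over all 30 libraries was compared with the other 16003 genes kept in all 3 areas, by Pearson's r of log2 CPM centred within each area. The libraries share rats, treatment and scaling, so these correlations are descriptions and carry no p. Gpnmb was rank 2 among the genes most like Lgals3 (r = 0.968) and rank 3 among those most like Spp1 (r = 0.949), while Lgals3 and Spp1 had r = 0.931 with each other. Among the genes most like Gpnmb, Lgals3 was rank 10 and Spp1 rank 43. For Apoe, the nearest of the 5 was Gpnmb, at rank 145. The identifier most like Gpnmb was ENSRNOG00000002919 (r = 0.986), and the one most like Lyz2 was ENSRNOG00000034139 (r = 0.996), whose counts kept a near-constant ratio to those of Lyz2. The identifier next most like Lyz2 was at r = 0.916, and that next most like Apoe at r = 0.963. The identifiers most like Lgals3, Spp1 and Apoe reached r = 0.975, 0.955 and 0.970. Lyz2 and Apoe were the least alike of the 5, at r = 0.790. The lists depended on the measure, and of the 3 genes most like each by Pearson's r, Spearman's rho kept 2 for Lgals3, 0 for Spp1, 1 for Gpnmb, 1 for Lyz2 and 3 for Apoe.

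This likeness includes the difference between TBI and sham that chose the genes, and it was smaller once the mean of each area and treatment was taken out. Over the 30 libraries, these deviations within groups had r = 0.854 for Lgals3 and Gpnmb, 0.788 for Spp1 and Gpnmb, and 0.650 for Lgals3 and Spp1. They had r = 0.426 for Lyz2 and Apoe, and the other 6 pairs lay between 0.488 and 0.660. Rats with more Gpnmb than their group tended to have more Lgals3 and Spp1 in the same area, and sham-operated rat 3 and TBI rat 8 in the hippocampus and TBI rat 6 in the thalamus are among these points.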

How the data were processed

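Per the labels, the authors used STAR and the Rnor_5.0 genome, and deposited raw counts of reads per Ensembl gene, with 1 unnormalized table for each brain area. The counting tool and its use of strand are not given in the sources used here, so reads of overlapping or antisense genes cannot be told apart. The 5 genes, the gene lists and the tests were chosen with earlier results of these data known.

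The software was edgeR 4.0.16 and DESeq2 1.42.0 in R 4.3.3. In each area, genes were kept by filterByExpr (minimum count 10, minimum total 15), scaled by TMM and compared by the robust quasi-likelihood test of edgeR, with p-values adjusted by Benjamini-Hochberg (threshold 0.05). A prior count of 3 was added for log2 CPM. The genes named were the 5 and, for each, the 3 identifiers most like it, of which 2 are printed. The procedure was tested on simulated data. The name table matched 0 of 26404 identifiers, so 18 lists of phagocyte, lysosome, lipid, receptor and cell type genes, and the tissue markers, were not analysed here.

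The same rats gave all areas, so the rat pairs the sham libraries. The correlation of same-rat deviations lay between -0.10 and 0.24 over the 15 pairs. Depth was 21992859 to 31799879 counts. Alternatives were DESeq2, RLE size factors, no filter, each rat left out, the rat as a block, Spearman's rho for likeness, hippocampal rats 3 and 8 or 4 and 5 left out and, added after the data were seen, further hippocampal libraries left out. Where paper and labels differ in the instrument of the thalamic libraries, the paper's was used.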

Additional observations from a re-analysis of the deposited data

Results flagged for a closer look

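Among the 30 groups of 5 libraries (5 genes, 3 areas, 2 treatments), 2 held a library far from its group by Dixon's test at the 95% level, a test that flags about 1 in 20 groups by chance. Both were the hippocampal library of sham-operated rat 3. Its Gpnmb level was 22.8 CPM, where the nearest sham library was at 12.2 CPM, and its Spp1 level was 2.62 CPM, where the nearest was at 0.563 CPM. The same library was the highest sham library for Lgals3, Lyz2 and Apoe without standing apart by this test. Without rat 3, the hippocampal log2 fold change of TBI over sham was 1.59 for Gpnmb, 2.44 for Spp1, 2.08 for Lgals3, 0.34 for Lyz2 and 0.38 for Apoe. The cause was not tested.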

How the results depend on the processing

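None of the 215 values of the 5 genes between TBI and sham under an alternative changed sign, and 211 stayed within the spread between rats. In the hippocampus, the Spp1 log2 fold change was 2.64 without rats 3 and 8 and 2.78 without rats 3, 4, 5 and 8, the Apoe value was 0.53 without rats 3, 4, 5 and 8, and with single rats left out Spp1 lay between 1.17 and 2.44. Over all genes and both directions, DESeq2 called 1950 thalamic and 46 hippocampal genes, edgeR called 263 hippocampal genes without rats 3 and 8 and 82 without rats 3, 4, 5 and 8, and with single rats left out edgeR called 0 to 2421 thalamic and 0 to 1 hippocampal genes. The causes were not tested. In sham tissue, cortex against hippocampus gave 4799 called genes without hippocampal rats 3, 4 and 5 against 7686 with them, with fewer libraries tested. The replicate block, the rat as a pairing term, left all 15 tests of the 5 genes between sham areas on the same side of the threshold (for Lgals3 between cortex and thalamus a log2 difference of -1.57). The same held for all 165 values of these tests under any alternative. Depth limits Lgals3 and Spp1 most, with 8 to 78 reads in the hippocampal sham libraries.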
